A study of Mus musculus with 4 samples.

Results

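The cytokine subunit gene Il23a, the interleukin-1 receptor antagonist gene Il1rn, the chemokine genes Cxcl1, Cxcl2, Cxcl10, Cxcl12, Ccl2, Ccl7 and Cx3cl1 and the scavenging receptor gene Ackr3 are described here, 10 genes of the 22079 identifiers in the deposited table. The genes were chosen by name with the wild-type to knockout differences of these same libraries known. Those differences are therefore given as descriptions with no test of their own. RNA came from primary hepatocytes, the main working cells of the liver, isolated from C57BL/6 males of 8 weeks that were wild type (WT) or Prom1 -/- (KO), with 2 biological replicates per genotype. All 4 cultures attached for some hours in medium with fetal bovine serum, HEPES and dexamethasone, a glucocorticoid, and then stood overnight without serum. How the Prom1 allele was made, and whether other liver cells were removed from the cultures, is not given in the sources used here.

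Chemokines are small secreted proteins that guide migrating leukocytes through G protein-coupled receptors. Injured or cultured hepatocytes are known to make several of them, among them the neutrophil attractants CXCL1 and CXCL2 and the monocyte attractant CCL2, and many of these genes are targets of the transcription factor NF-kappa-B. ACKR3 is an atypical receptor that binds CXCL12, takes it into the cell and degrades it, while CXCR4 is the signalling receptor for the same ligand. IL-23 is a cytokine of the p19 subunit, encoded by Il23a, and the p40 subunit, encoded by Il12b; it sustains T cells that make IL-17.

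The start regions of 3 of the CXC chemokine genes hold letters that match the binding motif of NF-kappa-B, which describes the sequence and does not show a bound site. RefSeq starts on GRCm38.p6, the same assembly as mm10, were matched for 7 of the 10 genes, and the 250 bases before each start were searched on both strands. Il23a, Ccl2 and Ccl7 had no entry. The upstream windows of Cxcl1 and Cxcl2 (plus strand) and of Cxcl10 (minus strand) are shown because they hold the kappa-B consensus, and that of Ackr3 because its level differed most in the direction opposite to Il23a. Each runs 5′ to 3′ on the gene's strand and ends at the base before the start. Capitals mark kappa-B matches in the chemokine genes and, in Cxcl10, also the interferon response element nearest the 5′ end. In Ackr3 they mark a hypoxia response core, which also occurs in the printed windows of Cxcl1, Cxcl2 and Cxcl10 but is not marked there.

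Cxcl1, chr5:90890995-90891244: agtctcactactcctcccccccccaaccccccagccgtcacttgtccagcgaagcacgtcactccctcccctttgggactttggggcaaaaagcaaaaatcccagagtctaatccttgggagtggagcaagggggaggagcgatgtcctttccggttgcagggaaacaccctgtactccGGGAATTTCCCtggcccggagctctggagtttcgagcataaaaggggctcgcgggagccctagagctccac
Cxcl2, chr5:90903649-90903898: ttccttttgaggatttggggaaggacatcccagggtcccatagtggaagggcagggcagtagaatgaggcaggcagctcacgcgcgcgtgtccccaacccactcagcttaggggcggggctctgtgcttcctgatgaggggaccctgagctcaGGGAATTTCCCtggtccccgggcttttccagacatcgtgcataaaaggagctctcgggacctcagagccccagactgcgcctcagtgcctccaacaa
Cxcl10, chr5:92348890-92349139: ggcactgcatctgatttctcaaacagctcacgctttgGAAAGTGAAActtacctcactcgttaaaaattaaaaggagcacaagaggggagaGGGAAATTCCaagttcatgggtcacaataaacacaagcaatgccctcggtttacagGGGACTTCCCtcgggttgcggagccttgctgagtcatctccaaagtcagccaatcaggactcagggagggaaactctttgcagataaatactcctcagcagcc
Ackr3, chr1:90203730-90203979: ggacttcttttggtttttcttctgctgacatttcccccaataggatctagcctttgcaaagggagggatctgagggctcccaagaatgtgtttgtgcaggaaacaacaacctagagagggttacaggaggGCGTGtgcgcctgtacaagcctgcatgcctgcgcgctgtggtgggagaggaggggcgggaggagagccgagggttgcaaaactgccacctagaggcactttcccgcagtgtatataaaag

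In Cxcl1 the match GGGAATTTCC lay 71 to 62 bases before the start, overlapped by its reverse-strand partner at 70 to 61. Cxcl2 held the same letters at 97 to 88 bases, with the overlapping partner at 96 to 87. Cxcl10 held GGGAAATTCC at 159 to 150 bases, GGGACTTCCC at 103 to 94 and, upstream of both, GAAAGTGAAA, a match to the interferon response element, at 213 to 204. Over the 27025 genes in the table, 4.46% had a kappa-B match and 3.46% an interferon response element in a window of that length. The windows of Ackr3, Cxcl12, Cx3cl1 and all 3 annotated starts of Il1rn held neither. The AP-1 motif TGANTCA, found in 7.82% of genes, occurred in Cxcl10 at 74 to 68 bases and at the first start of Il1rn at 141 to 135. The hypoxia response core, searched as ACGTG or GCGTG, stood in Ackr3 at 120 to 116 bases. It occurred in 41.5% of genes and also in the windows of Cxcl1, Cxcl2, Cxcl10 and Il1rn.

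The levels were read as FPKM, since no header states the unit. FPKM divides the fragments of a gene by its transcript length and by the depth of the library, so such values can be compared between genes. Ccl2 had the highest mean over the 4 libraries at 414.5 FPKM, a level above 98.4% of the 10407 genes tested, and Cxcl1 followed at 76.4 FPKM. Neither overlapped the next gene in any library. From there the library values overlapped from neighbour to neighbour, in the order Cxcl10 (mean 19.1), Il1rn (13.9), Ccl7 (12.2), Ackr3 (5.76), Cxcl2 (4.41), Il23a (4.10) and Cxcl12 (3.45). Cx3cl1 (0.0755) stayed below all of them. Cultured hepatocyte RNA thus held far more Ccl2 and Cxcl1 message than message of any other gene described here.

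**Figure D1:**
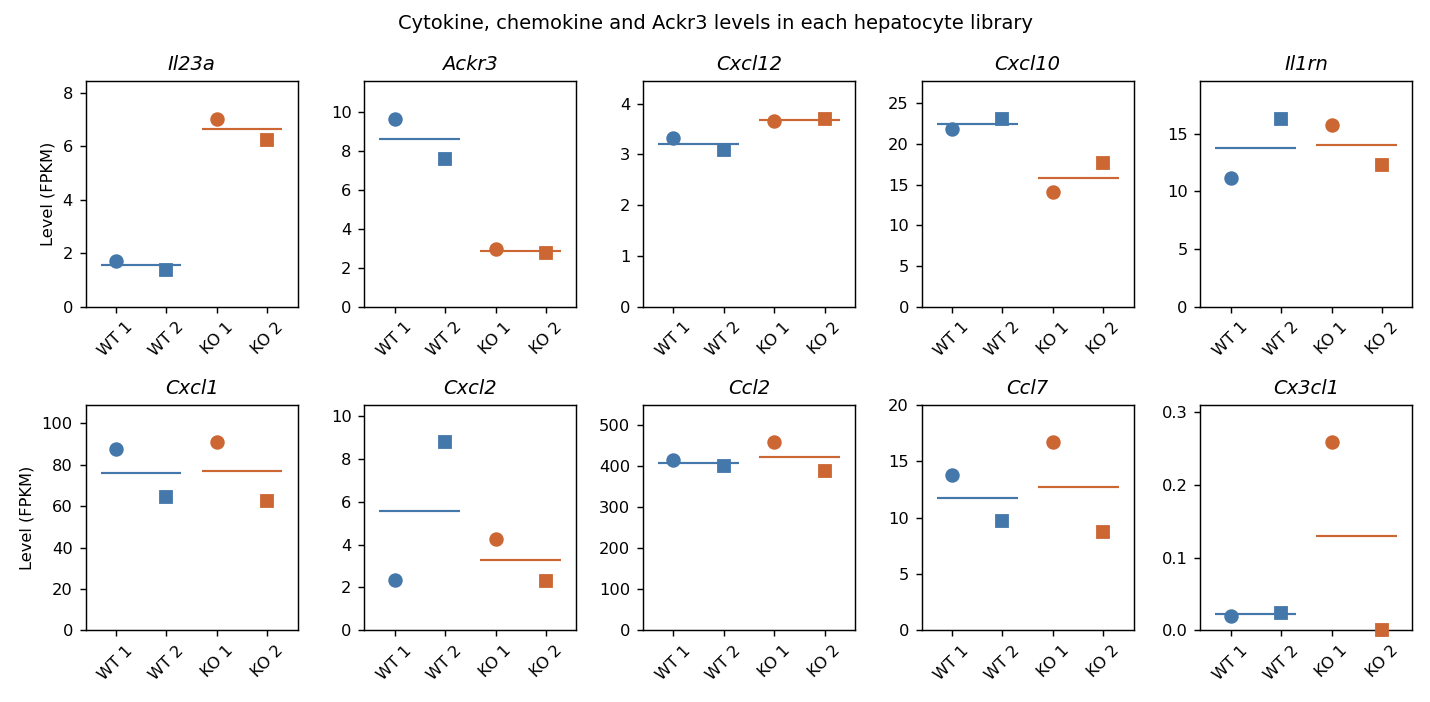
Each panel plots the FPKM of 1 gene in the 4 libraries on a linear axis from 0, with WT in blue, KO in orange, circles for replicate 1, squares for replicate 2 and a line at each genotype's mean. Il23a stood at 1.37 to 1.72 FPKM in WT and 6.25 to 7.04 in KO, Ackr3 at 7.62 to 9.68 and 2.76 to 2.97, and the values of Cxcl1, Cxcl2, Ccl2, Ccl7 and Il1rn overlapped between genotypes.

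Of the 10 genes, 9 passed the filter of a mean of at least 1 FPKM; Cx3cl1 did not. Among those 9, the KO pair was entirely above the WT pair for 2 (Il23a and Cxcl12) and entirely below it for 2 (Ackr3 and Cxcl10), and the libraries overlapped for 5. Of all genes tested, 18.3% had the KO pair above and 19.8% below, 38.1% in either direction; nothing is read from the comparison, since the genes were chosen with these differences known. Differences below are of the mean log2(FPKM + 1), KO minus WT, which understates the change of low genes, with the standard error (SE) from limma. The median of that difference over all genes tested was -0.0011.

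Il23a, the cytokine gene, was 4.30-fold higher in the mean of the KO libraries. It stood at 1.72 and 1.37 FPKM in WT 1 and WT 2 and at 7.04 and 6.25 FPKM in KO 1 and KO 2. The genotypes did not overlap, and the replicates differed 1.26-fold in WT and 1.13-fold in KO. The WT mean was 1.55 ± 0.252 FPKM and the KO mean 6.65 ± 0.561 (SD, n = 2), which differ by 1.59 on the log2 scale (SE 0.16). It was 1.49 to 1.69 with any 1 library left out, and 2.04 with a pseudocount of 0.1 in place of 1. At the estimated depth these levels rest on about 51, 33, 178 and 146 fragments in that order of libraries, if all came from the longest transcript of 1724 bases. The gene (ENSMUSG00000025383) spans chromosome 10, 128296139 to 128298752 (mm10, minus strand), has up to 4 exons and overlaps no other annotated gene.

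The partner and receptor genes of Il23a were near or at 0. Il12b, for the p40 subunit, had 0.0572 FPKM in WT 1 and a listed 0 in WT 2, with 0.0296 and 0.0674 FPKM in KO 1 and KO 2. Il12a, for the p35 subunit of IL-12, and Il23r, for the specific receptor chain of IL-23, were listed at 0 in all 4 libraries. Il12rb1, for the receptor chain shared with IL-12, stood at 0.990 and 0.598 FPKM in WT and 0.565 and 0.585 in KO. The libraries thus held Il23a message without a comparable level of Il12b message in either genotype.

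Downstream, 9 of the 22 genes of the IL-12, IL-23 and IL-17 axis were tested, of which 2 were higher and 7 lower in KO (median log2 difference -0.035). By limma 0 passed at an adjusted p under 0.05. At an unadjusted p under 0.05, 1 was higher and 1 was lower; over all genes tested, 7.29% reached that level (3.1% higher and 4.19% lower in KO) and 0% the adjusted threshold. Il22ra1, the receptor chain through which hepatocytes respond to IL-22, stood at 6.66 and 8.25 FPKM in WT and 3.29 and 4.47 in KO (log2 difference -0.80, SE 0.18; limma adjusted p = 0.519). Il17ra, the common IL-17 receptor chain, stood at 32.5 and 34.6 FPKM in WT and 42.9 and 39.8 in KO (0.29, SE 0.10; limma adjusted p = 0.614). Traf3ip2, the adaptor of that receptor, differed by -0.34. The genes for IL-17A, IL-17F and IL-22 were listed at 0 in every library.

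Macrophages are a known source of IL-23, and several of their markers had higher values in the KO libraries. Of 18 marker genes 14 were tested, of which 9 were higher and 5 lower in KO (median log2 difference 0.12); libraries did not overlap for 5 that were higher and 3 that were lower, against 18.3% and 19.8% of all genes tested. None of the 18 was at 0 in all libraries. The summed level was 486.9 to 504.7 FPKM in WT and 535.4 to 604.1 in KO, most of it Cd68. Without Cd68 and Cd14, left out after their values were seen, the sum of the other 16 was 39.4 to 39.5 FPKM in WT and 50.4 to 55.6 in KO. Most of the gap in that sum is of Lyz2, Marco and Cd5l. Cd14 went the other way, at 90.2 and 114.3 FPKM in WT and 87.0 and 88.3 in KO, so nothing is read from the smaller sum. Lyz2 stood at 6.84 and 7.86 FPKM in WT and 16.6 and 11.9 in KO (limma adjusted p = 0.518). Cd5l stood at 2.81 and 2.28 in WT and 4.82 and 4.62 in KO. The complement gene C1qa, another macrophage marker, stood at 3.62 and 3.78 in WT and 3.01 and 3.55 in KO. Marco (log2 difference 0.87), Lyz2 (0.85) and Cd5l (0.70) differed most among the markers. Msr1, Fcer1g, C1qc, Csf1r, C1qb and Clec4f overlapped between genotypes, and Cd14, Tyrobp and C1qa were lower in KO. Adgre1, which defines mouse macrophages, stood at 1.40 and 1.21 FPKM in WT and 2.62 and 1.80 in KO. The part of macrophage RNA in the level of Il23a was not tested, and in bulk RNA more cells of a type and more message per cell cannot be told apart.

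Ackr3, the scavenging receptor, was 3.02-fold higher in the mean of the WT libraries. It stood at 9.68 and 7.62 FPKM in WT 1 and WT 2 and at 2.97 and 2.76 FPKM in KO 1 and KO 2. The genotypes did not overlap, and the KO libraries differed 1.08-fold against 1.27-fold in WT. The WT mean was 8.65 ± 1.46 FPKM and the KO mean 2.86 ± 0.152 (SD, n = 2). The log2 difference was -1.31 (SE 0.16), and -1.16 to -1.47 with any 1 library left out. About 538, 351, 141 and 121 fragments lie behind these values, on the longest transcript of 3065 bases. Ackr3 (ENSMUSG00000044337) spans chromosome 1, 90203980 to 90216751 (plus strand), and overlaps no other gene.

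Its ligand gene Cxcl12 hardly differed. Cxcl12 (ENSMUSG00000061353, chromosome 6, 117168535 to 117181367, plus strand) stood at 3.32 and 3.09 FPKM in WT 1 and WT 2 and at 3.67 and 3.71 FPKM in KO 1 and KO 2, and both KO libraries were higher by a log2 difference of 0.16 (SE 0.14). The difference was thus close to its own SE. Within a library the ratio of Cxcl12 to Ackr3 was 0.343 and 0.406 in WT and 1.23 and 1.34 in KO. The ligand message was below the scavenger message in WT and above it in KO.

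The signalling receptor gene Cxcr4 stood at 1.69 and 3.06 FPKM in WT 1 and WT 2 and at 1.27 and 0.461 FPKM in KO 1 and KO 2. It was also lower in both KO libraries, with wide replicate gaps of 1.82-fold in WT and 2.76-fold in KO (log2 difference -0.86). Its KO mean of 0.867 FPKM was under the filter, which it passed only through WT. Its own p-value is therefore not given, though the counts over lists include it. The ratio of Ackr3 to Cxcr4 overlapped between genotypes, at 5.74 and 2.49 in WT and 2.33 and 5.98 in KO.

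Among chemokine receptor genes as a list, 4 of 23 had a mean of at least 1 FPKM. By limma 0 passed the adjusted threshold, as over all genes tested (0%). Besides Cxcr4, Ccrl2, an atypical receptor for chemerin, differed by -0.16, the endothelial receptor Gpr182 by -0.12 and the atypical receptor Ackr1 by -0.073. The signalling receptors of the described chemokines other than CXCL12 were near or at 0. Cxcr2, for CXCL1 and CXCL2, was listed above 0 in WT 1 alone, at 0.0262 FPKM. Cxcr3, for CXCL10, ran from 0 to 0.103 FPKM, Ccr2, for CCL2 and CCL7, from 0 to 0.0267, and Cx3cr1, for CX3CL1, from 0 to 0.0159. Another 10 of the 23 were at 0 in all libraries.

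Endothelial cells are known to express both Ackr3 and Cxcr4. Of 14 sinusoidal endothelial markers 12 were tested, with 8 higher and 4 lower in KO and a median of 0.047. Their summed level was 77.3 to 79.6 FPKM in WT, 110.6 in KO 1 and 58.7 in KO 2, and none was at 0 throughout. Stellate cell and fibroblast markers had the same order, with sums of 15.5 and 17.3 FPKM in WT, 26.7 in KO 1 and 11.9 in KO 2. The part of these cells in the level of Ackr3 was not tested. Cholangiocyte markers, 3 of 8 of them tested, summed to 53.5 and 50.7 FPKM in WT and 61.8 and 74.7 in KO. The claudin gene Cldn4 stood at 17.9 and 18.2 FPKM in WT and 24.9 and 51.5 in KO, and this sum separated the genotypes as the macrophage sum did. Of the tested markers only Cldn4 did so. Spp1 stood at 26.6 and 25.7 FPKM in WT and 27.0 and 16.8 in KO, and Sox9 overlapped too. Krt19, Krt7 and Epcam were at most 0.288 FPKM in any library. The part of cholangiocytes in the described genes was not tested.

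**Figure D2:**
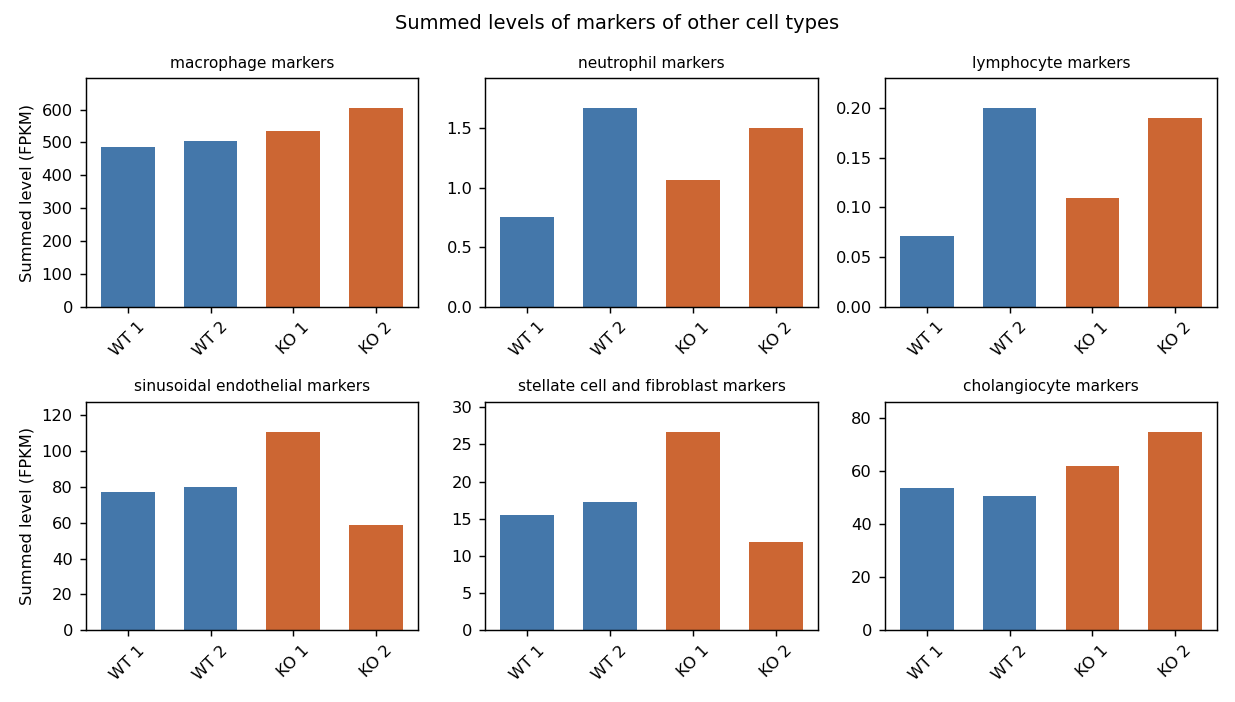
Bars give the summed FPKM of the marker genes of 6 other cell types in each library, with WT in blue and KO in orange and each panel on its own linear axis from 0. Macrophage sums were 486.9 to 504.7 FPKM in WT and 535.4 to 604.1 in KO, endothelial and stellate cell sums were highest in KO 1 and lowest in KO 2, cholangiocyte sums were 50.7 to 53.5 in WT and 61.8 to 74.7 in KO, and neutrophil and lymphocyte sums were at most 1.67 and 0.200 FPKM.

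The neutrophil attractants Cxcl1 and Cxcl2 sit 10755 bases apart on chromosome 5 and share the kappa-B letters printed above, and the order of libraries differed between them. Cxcl1 (ENSMUSG00000029380, 90891241 to 90893115, plus strand) stood at 87.8 and 64.3 FPKM in WT 1 and WT 2 and at 90.9 and 62.7 FPKM in KO 1 and KO 2. Each genotype held a high and a low library. The log2 difference was 0.0062 (SE 0.22), from -0.26 to 0.27 with 1 library left out. Cxcl2 (ENSMUSG00000058427, 90903871 to 90905938, plus strand) stood at 2.33 and 8.77 FPKM in WT 1 and WT 2 and at 4.28 and 2.28 FPKM in KO 1 and KO 2. WT 2 alone was high. The WT libraries differed 3.76-fold, a gap on the log2 scale larger than that of 99.8% of genes tested, and the genotype difference of -0.46 (SE 0.51) turned to 0.32 without WT 2. The ratio of Cxcl1 to Cxcl2 was 37.6 and 7.34 in WT 1 and WT 2, and 21.3 and 27.5 in KO 1 and KO 2.

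Other genes of that cluster were low. Cxcl3, a further neutrophil attractant, stood at 0.453 and 0.956 FPKM in WT 1 and WT 2 and at 0.485 and 0.391 FPKM in KO 1 and KO 2, highest in WT 2 as Cxcl2 was. Cxcl5 ran from 0 to 0.585 FPKM, highest in KO 1. Cxcl15 and Ppbp were listed at 0 in all libraries. Pf4, the platelet chemokine gene, stood at 1.71 and 1.25 FPKM in WT and 0.864 and 0.329 in KO (log2 difference -0.65). It passed the filter only through WT, its KO mean being 0.596 FPKM. Its own p-value is therefore not given, though the counts over lists include it. Neutrophil markers themselves were scarce: none of 10 was tested, Ly6g, Retnlg, Camp and S100a9 were at 0 throughout, and the sum was at most 1.67 FPKM in any library.

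The monocyte attractants Ccl2 and Ccl7 are neighbours on the plus strand of chromosome 11, 8258 bases apart. Ccl2 (ENSMUSG00000035385, 82035571 to 82037453) stood at 414.8 and 399.2 FPKM in WT 1 and WT 2 and at 457.0 and 386.9 FPKM in KO 1 and KO 2. Its replicates differed 1.04-fold in WT and 1.18-fold in KO, and the genotypes overlapped (log2 difference 0.047, SE 0.13). Gm17268, which Ccl2 overlaps on the opposite strand, was listed at 0 throughout. Ccl7 (ENSMUSG00000035373, 82045712 to 82047525) stood at 13.8 and 9.74 FPKM in WT 1 and WT 2 and at 16.7 and 8.74 FPKM in KO 1 and KO 2. Its KO libraries differed 1.91-fold, a larger log2 gap than in 98.2% of genes tested, and the difference between genotypes was 0.060 (SE 0.30). Both genes had the same order of libraries, KO 1 highest, then WT 1, WT 2 and KO 2, and so had Cxcl1. Endothelial and stellate cell sums, given above, were also highest in KO 1 and lowest in KO 2, but with WT 2 above WT 1. The part of those cells in these levels was not tested. The ratio of Ccl2 to Ccl7 was 30.1 and 41.0 in WT and 27.4 and 44.3 in KO. The 4 chemokine genes that follow them were nearly silent: Ccl11 and Ccl1 were listed at 0, and Ccl12 and Ccl8 were at most 0.158 and 0.174 FPKM. Beyond a gap of 1220087 bases on that chromosome, Ccl9 stood at 22.9 to 29.4 FPKM and Ccl5 at 2.69 to 6.67, while Ccl3, Ccl4 and Ccl6 were at most 1.69, 1.58 and 0.790.

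**Figure D3:**
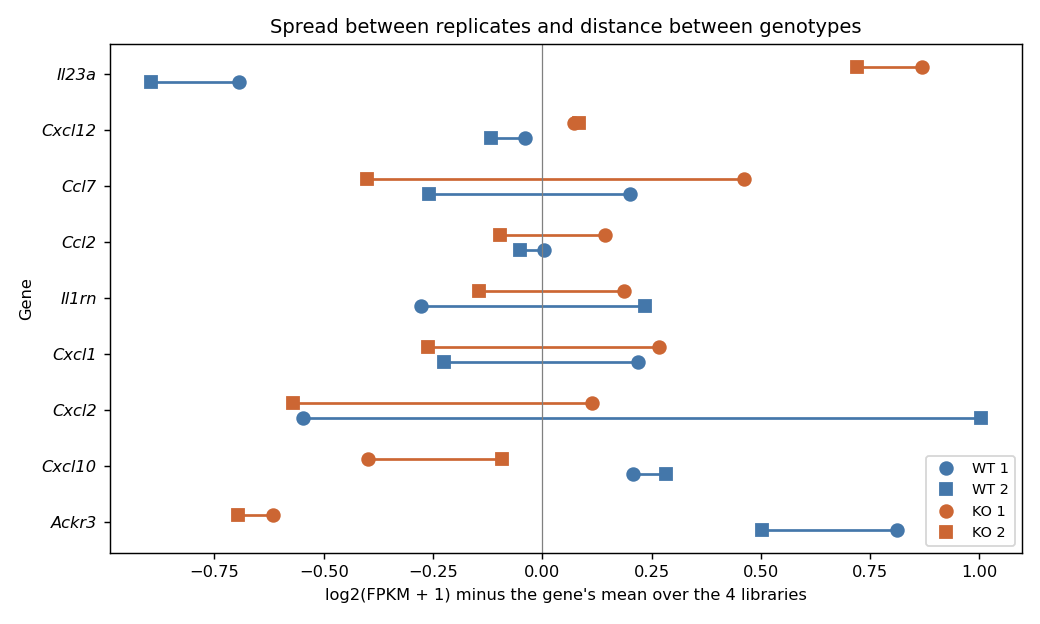
For the 9 genes that passed the filter, log2(FPKM + 1) of each library is plotted after centring each gene on its own 4-library mean, with a line joining the replicates of a genotype (WT blue, KO orange, circles replicate 1, squares replicate 2). The lines stand apart for Il23a, Cxcl12, Cxcl10 and Ackr3, and the longest is that of Cxcl2 in WT, where the libraries differed 3.76-fold.

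Cxcl10, the interferon-induced attractant of activated T cells, stood at 21.9 and 23.1 FPKM in WT 1 and WT 2 and at 14.0 and 17.6 FPKM in KO 1 and KO 2. Both KO libraries were lower, and the WT mean of 22.5 ± 0.870 FPKM was 1.42-fold the KO mean of 15.8 ± 2.52 (SD, n = 2). The log2 difference was -0.49 (SE 0.13) and ran from -0.34 without KO 1 to -0.64 without KO 2. Cxcl10 (ENSMUSG00000034855, chromosome 5, 92346638 to 92348889, minus strand) overlaps Art3 on the opposite strand, which was at most 0.170 FPKM in any library. Cxcl9, the neighbour with the same receptor, stood at 1.70 and 6.54 FPKM in WT 1 and WT 2 and at 2.2 and 3.10 FPKM in KO 1 and KO 2, so that its genotypes overlapped and WT 2 was high, as for Cxcl2.

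The list of interferon receptors, signal carriers and induced genes gave values in the direction of Cxcl10. All 17 were tested, 13 lower and 4 higher in KO, with a median of -0.24; both KO libraries were below both WT libraries for 10 and above them for 0, against 19.8% below over all genes tested. Without KO 1, which had the lowest summed level of the list, the median was -0.12. By limma 0 passed the adjusted threshold, as over all genes tested (0%). At an unadjusted p under 0.05, 5 were lower, against 4.19% of all genes tested. The antiviral enzyme gene Rsad2 differed by -0.70 (limma adjusted p = 0.562). Irf1, which binds interferon response elements, stood at 20.6 and 19.0 FPKM in WT and 16.1 and 16.4 in KO (-0.26; limma adjusted p = 0.681).

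Il1rn, the gene of the antagonist that blocks the interleukin-1 receptor, stood at 11.1 and 16.3 FPKM in WT 1 and WT 2. It stood at 15.8 and 12.3 FPKM in KO 1 and KO 2. High and low libraries occurred in both genotypes, and the log2 difference was 0.043 (SE 0.20). The agonist genes lay far below it. Il1a stood at 0.414 and 0.221 FPKM in WT and 0.587 and 0.657 in KO, and Il1b at 0.636 and 0.335 in WT and 0.580 and 0.699 in KO. Il1rn message was 17.5 to 48.8 times that of Il1b over the 4 libraries, with the highest ratio in WT 2. Il1rn (ENSMUSG00000026981) spans chromosome 2, 24336853 to 24351494, on the plus strand and has 6 annotated transcripts. The receptor gene Il1r1 stood at 5.31 and 8.46 FPKM in WT and 5.12 and 6.38 in KO.

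In the interleukin-1 family list, 11 of 23 genes in the table were tested, 5 higher and 6 lower in KO, with a median of -0.057. By limma 0 passed the adjusted threshold, as over all genes tested (0%). At an unadjusted p under 0.05, 1 was lower, against 4.19% of all genes tested. That was Irak3, an inhibitor of signalling from this receptor family, which stood at 2.82 and 3.27 FPKM in WT and 1.91 and 1.89 in KO (-0.48, SE 0.16; limma adjusted p = 0.614). The cytokine gene Il18 differed by -0.36, the kinase gene Irak2 by -0.27 and the kinase gene Irak4 by 0.22. Neither kinase gene reached an unadjusted p under 0.05 by limma. Il18 passed the filter only through WT, with a KO mean of 0.754 FPKM.

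No gene of the NF-kappa-B list passed the adjusted threshold by limma, and neither did any other gene tested. Of 34 listed, 26 were tested, 9 higher and 17 lower in KO, with a median of -0.068. At an unadjusted p under 0.05 there were 0, against 7.29% of all genes tested. The KO pair was clear of the WT pair for 4 that were higher and 5 that were lower, near the 18.3% and 19.8% of all genes tested. The sign of that median was not stable, at 0.0097 without WT 2. The subunit gene Rela stood at 65.3 and 73.9 FPKM in WT and 54.7 and 68.9 in KO, and the inhibitor gene Nfkbia, itself a target, at 29.5 and 33.6 in WT and 22.3 and 31.0 in KO. The largest differences were those of the apoptosis inhibitor gene Birc2 (-0.34), the transcription factor genes Cebpd (-0.32) and Cebpb (-0.26) and the macrophage growth factor gene Csf1 (0.30). Of the other 31 chemokine ligand genes, 10 were tested, 4 higher and 6 lower, with a median of -0.0084 that changed sign without WT 2 (0.14), without KO 1 (0.012) and when genes had to average 5 FPKM (0.18). Besides Pf4, the largest differences there were those of Ccl5 (-0.37), Cxcl9 (-0.32) and Cxcl13 (-0.25), each with overlapping libraries. Over the 6 pathway lists together, 10 of 77 genes tested had an unadjusted p under 0.05 by limma, 1 higher and 9 lower. Over all genes tested the shares were 3.1% higher and 4.19% lower, and 0 of the list genes passed the adjusted threshold. Of the 9, 5 come from the interferon list, and Cxcr4 and Pf4 are among the others. Nothing is read from these counts, since the lists were chosen with earlier results of these data known. Like Cxcr4 and Pf4, Il18 and Cebpd passed the filter only through WT.

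**Figure D4:**
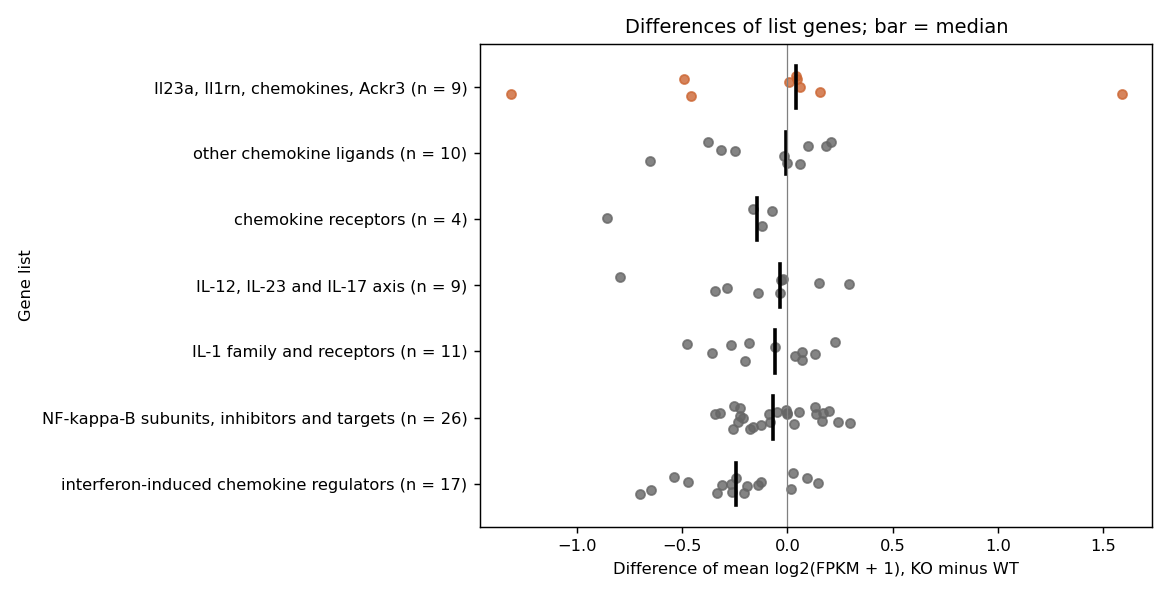
Each point is the difference of mean log2(FPKM + 1), KO minus WT, of 1 tested gene, by list, with black bars at list medians; the described genes are in orange. Medians lay between -0.24 and 0.043. The differences of Il23a (1.59) and Ackr3 (-1.31) were known when the described genes were chosen, so nothing is read from their place beside the lists.

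Cx3cl1 (ENSMUSG00000031778, chromosome 8, 94772009 to 94782427, plus strand), the membrane-tethered chemokine gene, was close to the lowest level the libraries can show. WT 1 and WT 2 had 0.0200 and 0.0237 FPKM, KO 1 had 0.258 and KO 2 a listed 0. On its longest transcript this is about 1, 1, 13 and 0 fragments, so no difference between genotypes can be read at this depth. KO 1, the library with the highest endothelial and stellate cell sums, carried nearly all of it, and the part of those cells was not tested.

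The genes whose library pattern lay nearest to Il23a and Ackr3 were found by the Euclidean distance between centred log2(FPKM + 1) values over the 4 libraries, among 10125 other tested genes. For Il23a they were Dio3, the thyroid hormone-inactivating deiodinase gene (distance 0.40), the metalloproteinase inhibitor gene Timp1 (0.43) and the prion-like gene Prnd (0.45). Timp1 stood at 0.724 and 0.320 FPKM in WT and 2.98 and 2.08 in KO. For Ackr3 they were the prolyl hydroxylase gene Egln3 (0.19), the phosphofructokinase gene Pfkl (0.33) and the ankyrin repeat gene Ankrd37 (0.34). Egln3 stood at 6.21 and 5.03 FPKM in WT and 2.14 and 1.88 in KO. Timp1 and Prnd passed the filter only through KO, and Ankrd37 only through WT. With 4 libraries such nearness says only that the values are alike in these samples.

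The libraries were alike in depth and in the number of genes detected. Each had between 10327 and 10424 genes at 1 FPKM or more, and an estimated 15300000 to 19400000 fragments. The targeted gene Prom1 had 0.571 and 1.22 FPKM in WT, a listed 0 in KO 1 and 0.0458 FPKM in KO 2. All 11 hepatocyte markers in the table were tested, 3 higher and 8 lower in KO (median log2 difference -0.039). Apoa1 ran from 5505 to 6228 FPKM. The hepatocyte transcription factor gene Hnf4a stood at 90.4 and 95.8 FPKM in WT and 64.9 and 59.5 in KO (-0.58, SE 0.10; limma adjusted p = 0.470). Alb, counted among the 3 that were higher, was listed at 0 in WT 2 and stood at 25551 to 32670 in the others. A 0 in this table can thus be a failed estimate. Lymphocyte markers summed to at most 0.200 FPKM, with Cd4 and Cd8a at 0. Over all genes, 0 of 10407 passed at an adjusted p under 0.05 by limma. The smallest adjusted p by limma over these genes was 0.239. Before adjustment 759 of them lay under 0.05.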

How the data were processed

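The labels' protocols give a stranded Illumina mRNA library kit. Cuffdiff 2.2.1, Cufflinks, STAR 2.5.0 and build mm10 appear in the submitters' processing notes without their roles. Which annotation and strand setting served for counting is not given in the sources used here. For each gene and library the authors deposited 1 value, read as FPKM from those tools and the values, since no header states the unit. Of 22079 identifiers, 21984 were matched to GENCODE M21. Depth was estimated from the lowest value steps of protein-coding genes with 1 transcript of over 1500 bases, at an assumed fragment length of 200 bases. Only 39.8% to 49.6% of the values used came within 0.1 of a whole fragment, so fragment numbers are approximate and no count test was run.

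Values were compared as log2(FPKM + 1) in the 10407 genes averaging 1 FPKM or more with limma 3.58.1 in R 4.3.3 (intensity trend, genotype as the only term, two-sided, Benjamini-Hochberg adjusted p under 0.05), after a check on simulated data. An exact permutation test of 2 against 2 cannot go below 0.333. The described genes and all lists were chosen with earlier results of these data known. Named are those 10 genes, Prom1, their direct partners and receptors, and up to 4 tested genes per pathway list with the largest difference. Further genes are named after their values were seen. Alternatives were other pseudocounts, filters, scalings, no trend, a replicate block and leaving out each library. A few list genes are not reported here by name.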

Additional observations from a re-analysis of the deposited data

How the results depend on the processing

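The log2 differences of Il23a, Ackr3, Cxcl10 and Cxcl12 kept their sign under every alternative run, while those of Il1rn, Cxcl1, Cxcl2, Ccl2 and Ccl7 each changed sign with some library left out and under no other alternative. Il23a ranged from 1.49 to 2.04, Ackr3 from -1.55 to -1.16, Cxcl10 from -0.64 to -0.34 and Cxcl12 from 0.12 to 0.20. A filter at a mean of 5 FPKM leaves out Il23a, Cxcl2, Cxcl12 and the 4 tested genes of the receptor list, which does not hold Ackr3, so it gave no value for them. The number of genes called by limma was 0 and ranged from 0 to 8 with 1 library left out: 8 without WT 1 and 5 without KO 1. Among listed genes it ranged from 0 to 1, with Alb called without WT 1 and Cldn4 without KO 1. The number at an unadjusted p under 0.05, 759, ranged from 318 without WT 2 to 1227 without KO 2. For listed genes it was 16 of 120, from 7 without WT 2 to 29 without KO 2, and 10 with the filter at a mean of 5 FPKM, which tests fewer genes. In fits with 1 library of a genotype, that library is assumed to vary like the others. Without WT 1 it is WT 2, where Alb had the listed 0 that can be a failed estimate. Without KO 1 it is KO 2, where Cldn4 stood at 51.5 FPKM against 24.9 in KO 1. The replicate numbers of the titles are not stated to pair the libraries; same-numbered libraries deviated together only weakly (r = 0.151 across 10407 genes). With a replicate block 0 genes were called and 1054 had an unadjusted p under 0.05, against 759. With 2 libraries per genotype, and about 0 to 13 fragments behind a gene as low as Cx3cl1, only large differences can be read.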
